A study of Mus musculus with 24 samples.

Results

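The 10 genes described here (Arc, Npas4, Homer1, Bdnf, Nptx2, Sik1, Btg2, Ier2, Gadd45b and Rgs2) are transcribed in neurons after synaptic activity. They were taken by symbol: every probe set that the array's annotation assigns to one of these genes and to no other gene was used. The genes themselves were chosen with earlier results of these data known. This gave 24 probe sets for 10 genes, out of 45037 probe sets and 18193 genes on the array. A probe set is a group of short probes that reports 1 transcript or a part of it. Of the 24 probe sets, 19 had a mean log2 level at or above 4.07, the median of all probe sets, and were tested with 21996 probe sets in all. Each of the 10 genes kept at least 1 of them. The 5 others (1 each for Gadd45b, Homer1, Nptx2, Rgs2 and Sik1) had mean log2 levels between 2.62 and 4.04, with no value in any array above 4.81, and are not described further.

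Female NMR-1 mice, 8 weeks old at the start, ate 1 of 4 diets for 2 weeks, after which RNA from the right cerebral hemisphere was hybridised, 1 array per mouse. The diets were mouse pellets, on which the animals had been raised (Pellet), a vegetable, fruit and yogurt diet as given to captive chimpanzees (Chimpanzee), cooked cafeteria meals (HumanCafe) and purchased fast food (FastFood). Each diet had 6 arrays, 3 in each of 2 processing batches that the labels name. No mouse was treated otherwise and all were of 1 stock, so that the groups are a model of diet only in young adult females of this stock.

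Neuronal activity opens calcium channels and glutamate receptors, and the calcium signal reaches the nucleus through kinases that activate CREB and other transcription factors already present in the cell. Immediate early genes respond first. Some encode transcription factors, such as Npas4, and others encode effectors that act at the synapse or feed back on the signal, such as Arc, Homer1 and Sik1. Their transcripts are short-lived, and they are widely used in cortex, hippocampus and striatum to mark recently active neurons.

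CREB binds the cAMP response element (CRE), TGACGTCA, and also its shorter form TGACG. RefSeq promoter windows (build GRCm38.p6, 250 bases before to 50 after a start site) were given for 6 of the 10 genes, in 13 windows, of which 7 belong to Bdnf and 2 to Homer1. Arc, Nptx2, Sik1 and Ier2 are named only. The short form, searched as TGACG or, for the other strand, CGTCA, was found in 5 of the 13 windows (38.5%) and in 20.8% of all 32851 windows of this length. The full CRE, which reads the same on both strands and holds 2 overlapping short forms, was found in 1 of the 13 windows (Btg2) and in 1.79% of all windows. A match describes the letters of the window and is not a binding site. The 5 windows with a match are shown because they come from genes whose levels are compared below, with the matched letters in capitals. They lie at chr19:4989922-4990221 (minus strand, Npas4), chr13:93303507-93303806 (plus strand, Homer1), chr2:109692186-109692485 (plus strand, Bdnf), chr1:134079106-134079405 (minus strand, Btg2) and chr1:144004100-144004399 (minus strand, Rgs2).
Npas4: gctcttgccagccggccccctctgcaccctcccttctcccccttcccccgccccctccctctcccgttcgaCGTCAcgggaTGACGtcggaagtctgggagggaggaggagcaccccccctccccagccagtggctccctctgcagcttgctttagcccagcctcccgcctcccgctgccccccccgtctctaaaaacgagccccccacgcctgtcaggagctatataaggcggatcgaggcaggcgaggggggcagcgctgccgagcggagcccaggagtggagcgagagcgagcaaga
Homer1: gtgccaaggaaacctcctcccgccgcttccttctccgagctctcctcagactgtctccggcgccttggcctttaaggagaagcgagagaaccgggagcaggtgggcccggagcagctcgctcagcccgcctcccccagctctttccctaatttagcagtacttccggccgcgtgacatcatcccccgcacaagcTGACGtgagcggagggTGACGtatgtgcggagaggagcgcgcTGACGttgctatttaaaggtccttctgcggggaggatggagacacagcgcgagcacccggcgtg
Bdnf: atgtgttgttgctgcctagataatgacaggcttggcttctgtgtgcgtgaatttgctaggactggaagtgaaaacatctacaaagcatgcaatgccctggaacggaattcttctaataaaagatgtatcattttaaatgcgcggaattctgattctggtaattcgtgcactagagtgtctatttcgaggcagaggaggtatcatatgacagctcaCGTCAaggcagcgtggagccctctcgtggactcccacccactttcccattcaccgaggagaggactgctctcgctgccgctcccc
Btg2: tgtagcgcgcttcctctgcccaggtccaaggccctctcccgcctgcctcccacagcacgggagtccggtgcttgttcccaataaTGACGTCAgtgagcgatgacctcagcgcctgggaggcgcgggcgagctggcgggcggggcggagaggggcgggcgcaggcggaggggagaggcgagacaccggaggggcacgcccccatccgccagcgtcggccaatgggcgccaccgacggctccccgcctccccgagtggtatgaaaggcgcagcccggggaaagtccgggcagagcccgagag
Rgs2: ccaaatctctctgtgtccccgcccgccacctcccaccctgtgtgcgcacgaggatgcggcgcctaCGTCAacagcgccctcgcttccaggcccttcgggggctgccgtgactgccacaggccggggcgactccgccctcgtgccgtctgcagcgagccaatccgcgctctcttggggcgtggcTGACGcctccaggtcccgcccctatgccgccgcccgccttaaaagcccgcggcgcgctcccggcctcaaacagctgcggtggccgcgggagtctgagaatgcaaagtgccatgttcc
In Homer1 the 3 short forms begin 56, 40 and 14 bases before the start site. The full CRE of Btg2 begins 166 bases before it. The remaining 6 Bdnf windows, the second Homer1 window and the Gadd45b window hold neither form.

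Several arrays stood apart. Pellet batch 2 replicate 1 had an SD of 1.58 over all log2 values and a median correlation of 0.893 with the other arrays, against SDs of 1.81 to 2.06 and median correlations of 0.980 to 0.993 in the other 23. In the Chimpanzee, HumanCafe and FastFood diets the level of the 18S ribosomal RNA control separated the batches, at 5.87 to 6.58 for batch 1 arrays against 4.88 to 5.15 for batch 2 arrays. The Pellet arrays showed the reverse order, 4.96 to 5.51 and 5.92 to 6.42, so that the Pellet arrays went against their batch label. Comparisons that use Pellet are therefore given with the labels as they stand, and also without that array or with the Pellet labels exchanged where this changed a call of a member. The other diet comparisons share 1 batch term and 1 estimate of the spread with the Pellet arrays, so that their p-values also depend on these arrays. For the human diets against Chimpanzee, 0.0409% of all probe sets were called with only the compared diets in the fit, against 0% with all. The 6 neuronal markers (Snap25, Syt1, Rbfox3, Stmn2, Eno2 and Syn1) were all above the filter.

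The members were measured at very different levels. By the probe set with the highest mean of each gene (the lead probe set), the mean log2 level over the 24 arrays was 9.17 for Homer1, 8.93 for Rgs2, 8.08 for Arc, 6.48 for Bdnf, 6.06 for Gadd45b, 5.90 for Btg2, 5.73 for Ier2, 4.96 for Npas4, 4.47 for Nptx2 and 4.21 for Sik1. Probe sets differ in affinity, so that these are not amounts to be ranked between genes. The levels of Sik1 and Nptx2 were close to the filter of 4.07.

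**Figure D1:**
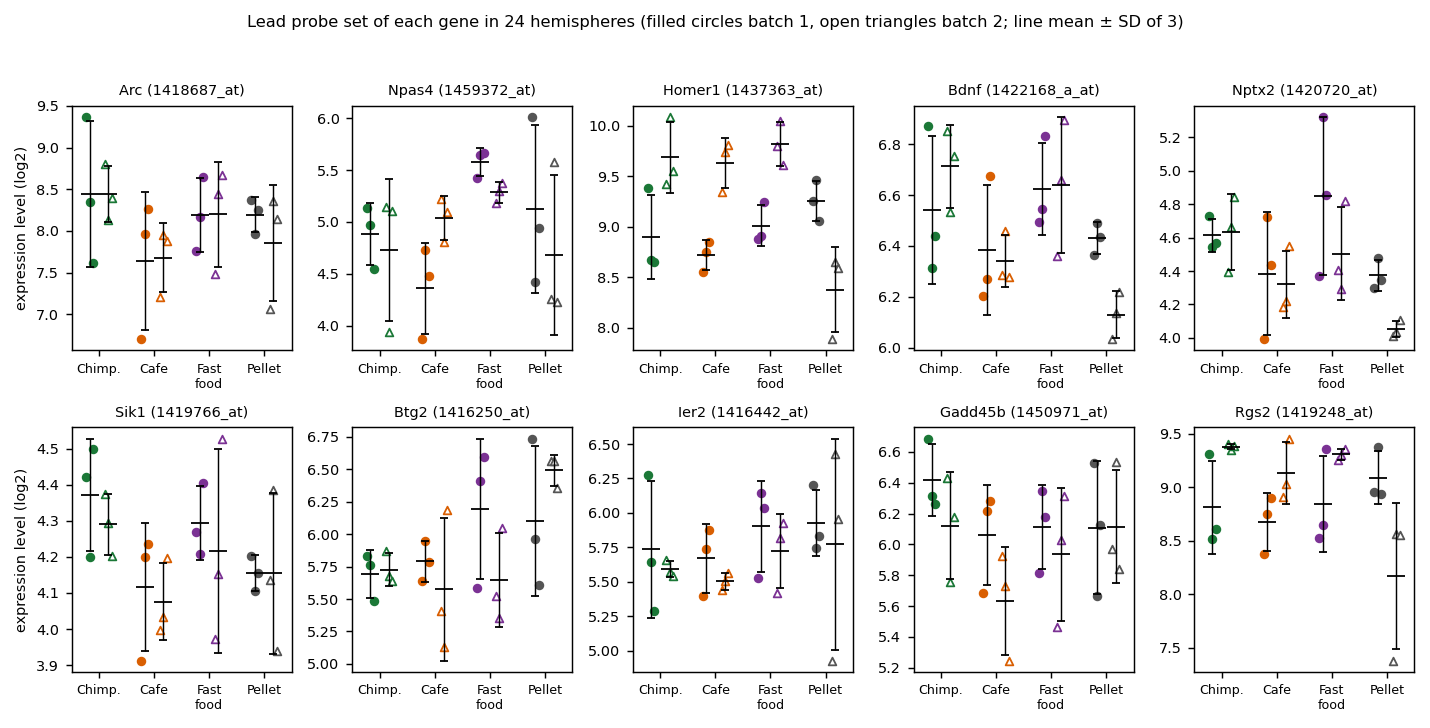
Level (log2, vertical axes, scaled separately for each gene) of the lead probe set of the 10 genes in each of the 24 hemispheres, by diet, with filled circles for batch 1, open triangles for batch 2 and lines for the mean ± SD of 3 arrays. Arc spans 6.71 to 9.37, and the 6 FastFood values of Npas4 (5.18 to 5.67) lie above the 6 Chimpanzee values (3.94 to 5.15).

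Npas4, a transcription factor made only after activity-driven calcium entry and known for regulating inhibitory synapses, showed its highest diet mean on FastFood. Its log2 levels on FastFood were 5.43, 5.65 and 5.67 in batch 1 and 5.18, 5.30 and 5.38 in batch 2. On the Chimpanzee diet they were 5.13, 4.97 and 4.55, then 5.15, 3.94 and 5.10. All 6 FastFood values lay above all 6 Chimpanzee values, which held for 0.118% of all probe sets tested. The difference was 0.63 (log2, SE 0.28), 0.70 in batch 1 and 0.56 in batch 2, and it did not pass (adjusted p = 1). On HumanCafe the levels were 3.87, 4.73 and 4.48 in batch 1 and 5.22, 4.80 and 5.09 in batch 2, so that only the highest HumanCafe array reached the FastFood range. FastFood minus HumanCafe was 0.73 (SE 0.28, adjusted p = 1), larger in batch 1 (1.22) than in batch 2 (0.25). The Pellet arrays spread over nearly the whole range, from 4.22 to 6.02, and included the highest value of all. The order of the diet means was FastFood, Pellet, Chimpanzee and HumanCafe, and no neighbours in it differed beyond their spread.

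Arc, which removes AMPA-type glutamate receptors from synapses and is needed for long-term memory, varied more than any other lead probe set. Its log2 levels on the Chimpanzee diet were 9.37, 8.35 and 7.62 in batch 1 and 8.80, 8.13 and 8.39 in batch 2. On HumanCafe they were 6.71, 7.96 and 8.27, then 7.20, 7.95 and 7.87. The groups overlapped, although the highest array was a Chimpanzee array and the lowest a HumanCafe array. HumanCafe minus Chimpanzee was -0.78 (SE 0.30, adjusted p = 1), with -0.80 in batch 1 and -0.77 in batch 2. FastFood, with levels of 7.76, 8.17 and 8.65 and then 7.48, 8.44 and 8.67, lay between them. The mean of both human diets minus Chimpanzee gave -0.52 (SE 0.26, adjusted p = 1). The Pellet values of Arc were 8.38, 7.96 and 8.25 in batch 1 and 7.06, 8.36 and 8.14 in batch 2. The lowest of these was the array that stood apart.

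Homer1 encodes scaffold proteins of the excitatory postsynaptic density that link metabotropic glutamate receptors to calcium stores, and a short activity-induced form that breaks these links. The gene (GRCm38.p6 chr13:93303757-93405129) has 6 probe sets, 5 of them tested, and 1 of these gave the only diet calls among the members. On the Pellet diet the log2 levels of Homer1 probe set 1436387_at were 7.09, 7.75 and 7.24 in batch 1 and 6.16, 6.90 and 7.39 in batch 2. On FastFood they were 8.42, 8.21 and 8.60, then 8.94, 9.21 and 8.87. On the Chimpanzee diet they were 8.86, 7.99 and 7.91, then 8.61, 8.25 and 8.84. Every Pellet array was below every FastFood and every Chimpanzee array, an order that 0.618% and 0.277% of all probe sets tested showed. HumanCafe, with 7.80, 7.67 and 8.14 and then 7.87, 8.53 and 9.10, overlapped Pellet by its lowest array.

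Pellet minus FastFood was -1.62 for Homer1 probe set 1436387_at (SE 0.25, adjusted p = 0.00677), with -1.05 in batch 1 and -2.18 in batch 2. It was the only one of the 19 member probe sets called in this comparison, in which 0.0409% of all probe sets were called, and also the only one called among the 4 diets (adjusted p = 0.0249), where 0.0455% of all were. Without Pellet batch 2 replicate 1 the difference was -1.39 (SE 0.21, adjusted p = 0.00642), and the test among the 4 diets gave an adjusted p of 0.0233 (0.0455% and 0.05% of all probe sets called). With the Pellet batch labels exchanged it kept its value, with SE 0.21 and adjusted p = 0.000426. The call was lost when only the arrays of the compared diets entered the fit (-1.62, SE 0.25, adjusted p = 0.185). The methods' two-way test, which removes probe sets with a diet-batch interaction, removed it in Pellet minus FastFood, and among the 4 diets gave it an adjusted p of 0.0549. Pellet minus HumanCafe was -1.10 (SE 0.25, adjusted p = 0.599). Pellet minus Chimpanzee was -1.32 (SE 0.25, adjusted p = 0.095) and did not pass without Pellet batch 2 replicate 1 either (-1.10, SE 0.21, adjusted p = 0.123). It passed with the Pellet labels exchanged (-1.32, SE 0.21, adjusted p = 0.00837), in a fit of the 8 diet-and-batch means (adjusted p = 0.0234) and after quantile normalization (-1.15, SE 0.17, adjusted p = 0.0114). In these settings 0.0636%, 0.0364% and 0.0136% of all probe sets were called. It also passed in batch 2 alone (-1.75, SE 0.33, adjusted p = 0.00834), where 52.1% of all probe sets were called.

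The call among the 4 diets was lost without any 1 of 7 of the 24 arrays, and also with the replicate block, no batch term or no filter. In Pellet minus FastFood 1 member was called whichever single array was left out.

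The other Homer1 probe sets did not give the same picture. For the lead probe set 1437363_at, Pellet minus FastFood was 0.25 in batch 1 and -1.44 in batch 2, and over the 4 diets the two-way test gave it a diet-batch interaction (adjusted p = 0.00243), as it did 46.5% of all probe sets. Probe set 1439662_at had every Pellet value below every FastFood value, as did 1436387_at, which makes 2 of 19 members with such an order. Its difference was -0.52 (SE 0.15, adjusted p = 0.224), and it passed only with the Pellet labels exchanged (SE 0.13, adjusted p = 0.0257). Within diet and batch, 1436387_at correlated with 1437363_at at r = 0.671 over the 24 arrays and with 1421768_a_at at r = -0.099. Without Pellet batch 2 replicate 1 these were 0.563 and 0.167. Which transcript form each probe set reports was not determined here.

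**Figure D2:**
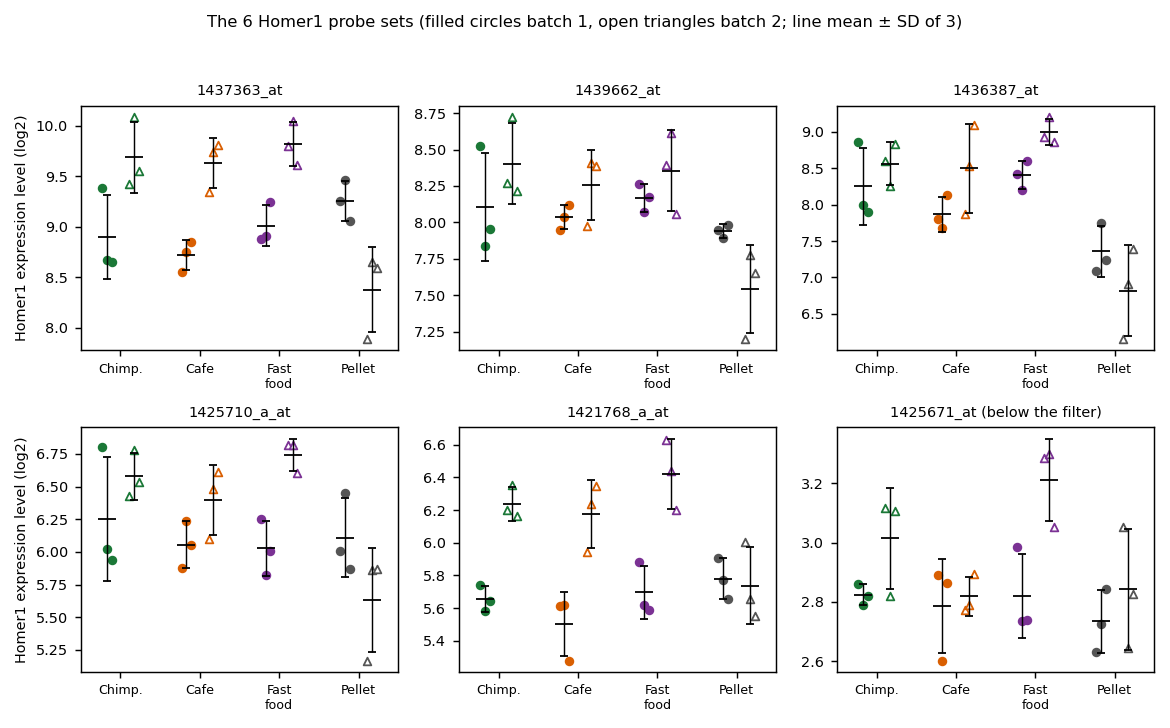
Level (log2, vertical axes, scaled separately) of the 6 Homer1 probe sets in each hemisphere, by diet, with filled circles for batch 1, open triangles for batch 2 and lines for the mean ± SD of 3 arrays. In 1436387_at all 6 Pellet values (6.16 to 7.75) lie below all 6 FastFood values (8.21 to 9.21), whereas in 1437363_at the Pellet values of batch 1 (9.06 to 9.46) lie among those of the other diets.

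With the Pellet batch labels exchanged, 8 of 19 member probe sets were called in Pellet minus FastFood, all lower on Pellet, against 16.1% of all probe sets. They were 4 of Homer1, both of Bdnf, and 1 each of Nptx2 and Rgs2, with differences of -0.35 to -1.62. With that exchange and without Pellet batch 2 replicate 1, 4 were called, all of them Homer1 (1421768_a_at, 1436387_at, 1437363_at and 1439662_at), against 6.94%. Bdnf, Nptx2 and Rgs2 were then not called. Fewer cells of a type and less RNA per cell cannot be told apart in a whole hemisphere, here or in any comparison below.

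Bdnf, the secreted neurotrophin that signals through TrkB, and Nptx2, a pentraxin that clusters AMPA receptors on interneurons, had the same order of diet means in their lead probe sets, with FastFood highest and Pellet lowest. For Bdnf the FastFood and Chimpanzee means were nearly equal (6.632 and 6.628), and its second probe set 1422169_a_at was highest on Chimpanzee and also lowest on Pellet. The log2 levels of Bdnf on Pellet were 6.36, 6.49 and 6.44 in batch 1 and 6.03, 6.14 and 6.22 in batch 2. On FastFood they were 6.49, 6.55 and 6.83, then 6.36, 6.66 and 6.90. The ranges overlapped, and Pellet minus FastFood was -0.35 (SE 0.12, adjusted p = 0.224). Nptx2 lay between 4.01 and 4.48 on Pellet and between 4.29 and 5.32 on FastFood, a difference of -0.46 (SE 0.15, adjusted p = 0.224) that was of nearly the same size in both batches, -0.47 and -0.45. No neighbouring diets were called for either gene.

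Sik1, a kinase that restrains the CREB coactivators and is itself a CREB target, had a narrow range, from 3.91 to 4.53. Its highest diet mean was Chimpanzee, at 4.33 ± 0.12 (SD, n = 6), and its lowest HumanCafe, at 4.10 ± 0.13 (SD, n = 6), with overlapping ranges and a difference of -0.24 (SE 0.10, adjusted p = 1). Rgs2, which speeds the shut-off of Gq-coupled receptor signalling, ran from 7.38 to 9.45. The lowest value was that of Pellet batch 2 replicate 1, and without it the lowest was 8.37. Its diet means were 9.10 on Chimpanzee, 9.08 on FastFood, 8.90 on HumanCafe and 8.63 on Pellet, and no neighbours were called.

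Btg2 restrains cell division and promotes shortening of mRNA tails, Ier2 is a nuclear protein of the immediate early class, and Gadd45b takes part in activity-driven DNA demethylation. By their lead probe sets Ier2 and Btg2 had the order Pellet, FastFood, Chimpanzee, HumanCafe, unlike those of Bdnf, Nptx2 and Homer1. The second Btg2 probe set 1448272_at had another order, FastFood, Pellet, HumanCafe, Chimpanzee. The Btg2 mean was 6.30 ± 0.43 (SD, n = 6) on Pellet and 5.71 ± 0.14 (SD, n = 6) on Chimpanzee, a difference of 0.59 (SE 0.22, adjusted p = 0.459). Ier2 ranged from 4.93 to 6.43 on Pellet alone, which covered all values of the other diets. Gadd45b was highest on Chimpanzee, at 6.27 ± 0.31 (SD, n = 6), and HumanCafe minus Chimpanzee was -0.42 (SE 0.19, adjusted p = 1), with -0.36 and -0.49 in the batches.

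The main question of the study was whether the human diets differ from the Chimpanzee diet, and in this comparison no member was called by limma. The same held for HumanCafe minus Chimpanzee, FastFood minus Chimpanzee, FastFood minus HumanCafe, Pellet minus Chimpanzee and Pellet minus HumanCafe, except that Homer1 1436387_at was called in Pellet minus Chimpanzee under the settings given above. In that comparison 1 member was also called without Pellet batch 1 replicate 2, and 12 in batch 2 alone (52.1% of all). Pellet minus HumanCafe had 10 in batch 2 alone (50.2% of all). The share called over all probe sets was 0% in all 6, except 0.00455% in Pellet minus Chimpanzee. At an unadjusted p under 0.05, human diets minus Chimpanzee held 1 of the 19 (Gadd45b, -0.33), against 1.9% of all probe sets. Among the 4 diets 7 had an unadjusted p under 0.05, against 5.41%, and in Pellet minus FastFood 9, against 21.5%. HumanCafe minus Chimpanzee held 5 against 1.46% of all, FastFood minus Chimpanzee 2 against 1.84%, and FastFood minus HumanCafe 3 against 0.773%. Pellet minus Chimpanzee held 8 against 9.54%, and Pellet minus HumanCafe 3 against 5.47%. The methods' two-way test called 0 members in each of these comparisons at an adjusted p under 0.05. It removes probe sets with a diet-batch interaction, which left fewer members in some. At an unadjusted p under 0.05 it held 1 of 19 kept in human diets minus Chimpanzee and 3 of 19 in HumanCafe minus Chimpanzee. FastFood minus Chimpanzee gave 2 of 19, and FastFood minus HumanCafe 1 of 18, with Npas4 removed. Pellet minus Chimpanzee gave 7 of 14 and Pellet minus HumanCafe 3 of 12. The share over all probe sets was not counted for this test, so that these counts cannot show whether the members stood out.

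In HumanCafe minus Chimpanzee 18 of 19 probe sets were lower on HumanCafe, against 54.1% of all, with a median of -0.19 against -0.01 over all probe sets. In FastFood minus HumanCafe all 19 were higher on FastFood, against 68.7% of all, with a median of 0.22 against 0.05. These comparisons share the HumanCafe arrays, and the members vary together between arrays, as described below, so that the 19 signs are not 19 separate observations. Some lists of markers of brain regions, cell types and glucocorticoid action also lay to one side in HumanCafe minus Chimpanzee, with none called by limma. All 6 tested cerebellum markers (median 0.81), all 7 of thalamus (0.42), all 7 of oligodendrocytes (0.17) and all 5 of choroid plexus and ependyma (0.21) were higher on HumanCafe. All 8 glucocorticoid targets (-0.27) and 6 of 7 cortex and hippocampus markers (-0.12) were lower, and so were all 6 neuronal markers (-0.07). Other lists were mixed. Striatum had 2 higher and 6 lower, olfactory bulb 1 and 4, astrocytes 3 and 4, microglia 2 and 4, and endothelium 4 and 1. The part of these lists in the members' values was not tested. In FastFood minus Chimpanzee, which does not use HumanCafe, 11 member probe sets were higher and 8 lower, against 61.7% of all higher. Most of the marker lists that lay to one side lay to the same side there. All 6 cerebellum (0.52), 7 thalamus (0.56), 7 oligodendrocyte (0.27) and 5 choroid plexus and ependyma markers (0.13) were higher on FastFood. Of the glucocorticoid targets 7 of 8 (-0.19) were lower, as were 6 of 7 cortex and hippocampus markers (-0.11). Of the neuronal markers 4 were higher and 2 lower. Pellet was lower than Chimpanzee in 15 of 19 (71% of all), than FastFood in 16 (72.3%) and than HumanCafe in 11 (69.9%). For human diets minus Chimpanzee the lead probe sets gave 4 higher and 6 lower, and of the 19 probe sets 12 were lower, against 44.5% of all. Npas4 (0.26), Btg2 (0.09), Ier2 (0.04) and Homer1 (0.00) were higher on the human diets. Arc (-0.52), Gadd45b (-0.33), Sik1 (-0.16), Bdnf (-0.13), Nptx2 (-0.11) and Rgs2 (-0.11) were lower, each with an adjusted p of 1.

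The array-to-array scatter within a diet and batch was wide for several members. The SD within diet and batch was 0.60 for Arc and 0.51 for Npas4, at the 99.6th and 99.1st percentile of the 19802 tested probe sets with 1 gene, whose median was 0.22. Without the Pellet arrays, Arc had 0.63 (99.7th percentile) and Npas4 0.37 (98.5th percentile), and the median was 0.18. Btg2 and Ier2 (both 0.38, 92.7th percentile) also scattered widely, whereas Sik1 was at 0.16 (22nd percentile). Over all arrays the highest Arc level was 6.34-fold the lowest.

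This scatter was shared. After each diet-and-batch mean was taken off, 44 of the 45 pairs of lead probe sets correlated positively over the 24 arrays, with a median r of 0.398. Over the 18 arrays without Pellet the median was 0.476, with 43 positive pairs and 20 pairs over 0.5. Arc and Ier2 were the closest pair (r = 0.843 over 24 arrays, 0.848 without Pellet batch 2 replicate 1 and 0.887 over 18), and Npas4 and Homer1 the farthest of the 18-array pairs (r = -0.188). On 2 arrays, Chimpanzee batch 1 replicate 1 and FastFood batch 1 replicate 3, all 10 genes lay above their diet-and-batch mean. On 3 arrays, HumanCafe batch 1 replicate 1, FastFood batch 1 replicate 1 and FastFood batch 2 replicate 1, all 10 lay below it.

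**Figure D3:**
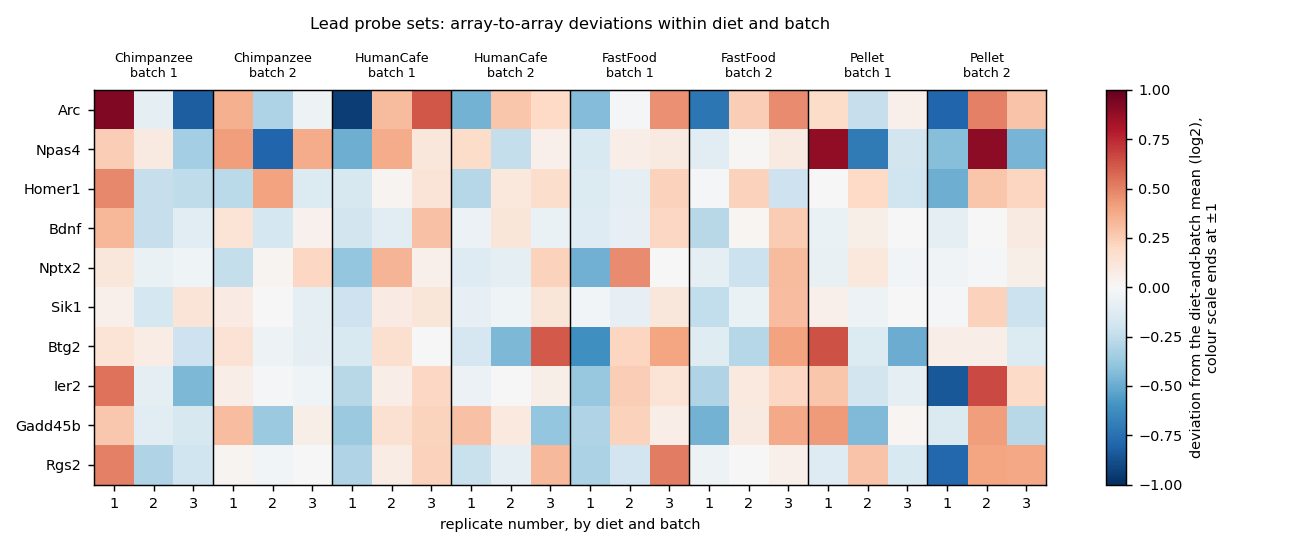
Deviation of each lead probe set (rows) from its diet-and-batch mean (log2, red above and blue below, colour scale ending at ±1) on each of the 24 arrays (columns, grouped by diet and batch). Whole columns share a colour: all 10 genes are above the mean on Chimpanzee batch 1 replicate 1 and below it on HumanCafe batch 1 replicate 1.

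The shared scatter moved with properties of the whole array. The mean deviation of the 10 genes correlated with the SD of all log2 values at r = 0.699 and with the mean of the 6 neuronal markers at r = 0.644 (24 arrays, both taken as deviations from the diet-and-batch mean), and with the 18S control at r = -0.04. Over the 18 arrays without Pellet these were 0.708, 0.701 and 0.357. The difference between the 3′ and 5′ Actb control probe sets, a measure of RNA integrity, gave 0.301 and 0.426. The median correlation of Arc with all other probe sets was 0.407. After joint quantile normalization of the 24 arrays, which gives all arrays the same distribution, that median fell to 0.114. The median over the member pairs was then 0.308, with 39 of 45 pairs positive, and Arc and Ier2 correlated at 0.721. Over the 18 arrays without Pellet the quantile-normalized values gave 0.457 for the member pairs, 0.85 for Arc and Ier2, 0.062 for Arc with all probe sets, and 0.024 between the members' mean deviation and the neuronal markers. The correlation of that mean deviation with the SD of the deposited values was then 0.484, and with the Actb difference 0.365. The part of array quality, dissection or handling in this scatter was not tested.

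The genes most like each member were found by the same correlation over the 24 arrays. In each pair both genes were read from the same array, and so share its RNA and scaling. For Arc they were Nr4a1 (r = 0.955), Dusp1 (0.917) and Siah2 (0.915), of which Nr4a1 is an immediate early nuclear receptor and Dusp1 an induced phosphatase of MAP kinases. For Ier2 they were Gadd45b by its probe set 1449773_s_at (0.943, against 0.617 for its lead probe set), Coq10b (0.936) and Tiparp (0.917), and for Npas4 Ccn1 (0.842), Hspa8 (0.817) and Pxk (0.807). Bdnf was closest to Mrpl45 (0.922), Snapc1 (0.891) and Sertad1 (0.886). Homer1 had Ppp1r9a (0.975), Plppr4 (0.972) and Celf2 (0.964), and Rgs2 had Scrn1 (0.968), Rab3c (0.967) and Xbp1 (0.967). For Homer1 and Rgs2 the median over all probe sets was itself 0.415 and 0.529. The neighbours were Hira (0.798), Abhd10 (0.782) and Klhl18 (0.747) for Nptx2, and Gm10421 (0.805), Fam220a (0.797) and Zfp513 (0.761) for Sik1. For Btg2 they were Stk32c (0.746), Ctdsp1 (0.735) and Gas8 (0.696), and for Gadd45b Fbxl20 (0.853), Zfand2b (0.828) and Ctdp1 (0.82).

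With all arrays in the fit, the members' batch calls fell in Homer1 and Rgs2, and the share called was close to that of all probe sets. In batch 2 minus batch 1 of the diets other than Pellet (18 arrays), 6 of 19 probe sets were called, all higher. Of all probe sets 36.4% were called and 31.1% called higher. The Pellet arrays did not enter this difference but shared its estimate of the spread, so that its p-values depend on them. Without Pellet batch 2 replicate 1, 51% of all probe sets were called. Leaving out any single array gave 4 to 8 member calls. They were 4 of Homer1 (0.46 to 0.84) and 2 of Rgs2 (0.39 and 0.49), while the median over all probe sets was 0.15. The calls of Homer1 1436387_at and Rgs2 1447830_s_at were each lost when certain single arrays were left out (any of 8 and any of 13 arrays). After quantile normalization 3 of the 19 were called, against 23.2% of all probe sets. Homer1 1421768_a_at and 1437363_at were higher (0.51 and 0.43) and Gadd45b 1450971_at lower (-0.43). No Rgs2 probe set was then called (0.03, 0.11 and 0.07), nor Homer1 1425710_a_at (0.29) or 1436387_at (0.18). The lead Homer1 values ran from 8.55 through a median of 8.85 to 9.38 in batch 1 and from 9.34 through 9.74 to 10.09 in batch 2 (9 arrays each). These ranges overlapped by little, and the difference was 0.84 (SE 0.13, adjusted p = 7.6e-05). Homer1 1421768_a_at (0.66, SE 0.09, adjusted p = 1.19e-05) was the only member without overlap, against 6.99% of all probe sets. Arc, Npas4, Bdnf, Nptx2, Sik1, Btg2, Ier2 and Gadd45b were not called, with differences of -0.30 to 0.12, and for Arc it was 0.01 (SE 0.25). The summed level of the 6 neuronal markers lay between 12.71 and 13.79 in batch 1 and between 13.54 and 13.91 in batch 2 (log2), and 5 of the 6 were called higher (median 0.61). So were 5 of 7 astrocyte markers (0.63) and 5 of 7 oligodendrocyte markers (0.47). Choroid plexus and ependyma gave 3 of 5 (0.44), thalamus 3 of 7 (0.37) and striatum 3 of 8 (0.19). Cortex and hippocampus gave 1 of 7 (0.12), microglia 1 of 6 (0.13) and endothelium 1 of 5 (0.18). Cerebellum gave 0 of 6 (-0.05) and olfactory bulb 0 of 5 (-0.12). Their part in the Homer1 and Rgs2 differences was not tested.

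On the Pellet diet the batch difference ran the other way. Rgs2 levels were 8.96, 9.38 and 8.94 in batch 1 and 7.38, 8.57 and 8.56 in batch 2. Batch 2 was thus lower on average, whereas in the other diets it was higher on average. Within Pellet alone 4 members were called, all lower in batch 2 (the lead Homer1 probe set, -0.88, and the 3 of Rgs2, -0.67 to -0.92), against 61.2% of all called and 50.6% called lower. Relative to the other diets, the Pellet batch difference was lower by a called amount in 8 of 19 probe sets, against 69.1% of all called and 56.1% called lower. These were the 5 of Homer1 (-0.63 to -1.71) and the 3 of Rgs2 (-1.06 to -1.42), with a median of -0.56 over all probe sets. Without Pellet batch 2 replicate 1 it was called in 6, against 56.9% of all, and the lead probe sets gave -1.47 for Homer1 and -1.02 for Rgs2. Markers of several cell types moved with it. All 6 neuronal markers (median -1.44), 6 of 7 astrocyte (-1.35), 6 of 7 oligodendrocyte (-1.11), 5 of 6 microglia (-0.65) and all 5 endothelium markers (-0.60) were called lower. So were 6 of 7 thalamus, 5 of 8 striatum and 3 of 5 choroid plexus and ependyma markers. Cortex and hippocampus gave 2 of 7 lower and 1 higher, olfactory bulb 1 of 5 lower and 1 higher, and cerebellum 0 of 6. Their part in the Homer1 and Rgs2 differences was not tested. After quantile normalization, 4 members were called, against 53.1% of all. Homer1 1437363_at and Rgs2 1419248_at were lower (-0.71 and -0.44), Btg2 and Gadd45b were now called higher (1.18 and 0.81), and Homer1 1439662_at turned from -0.63 to 0.21 without passing.

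**Figure D4:**
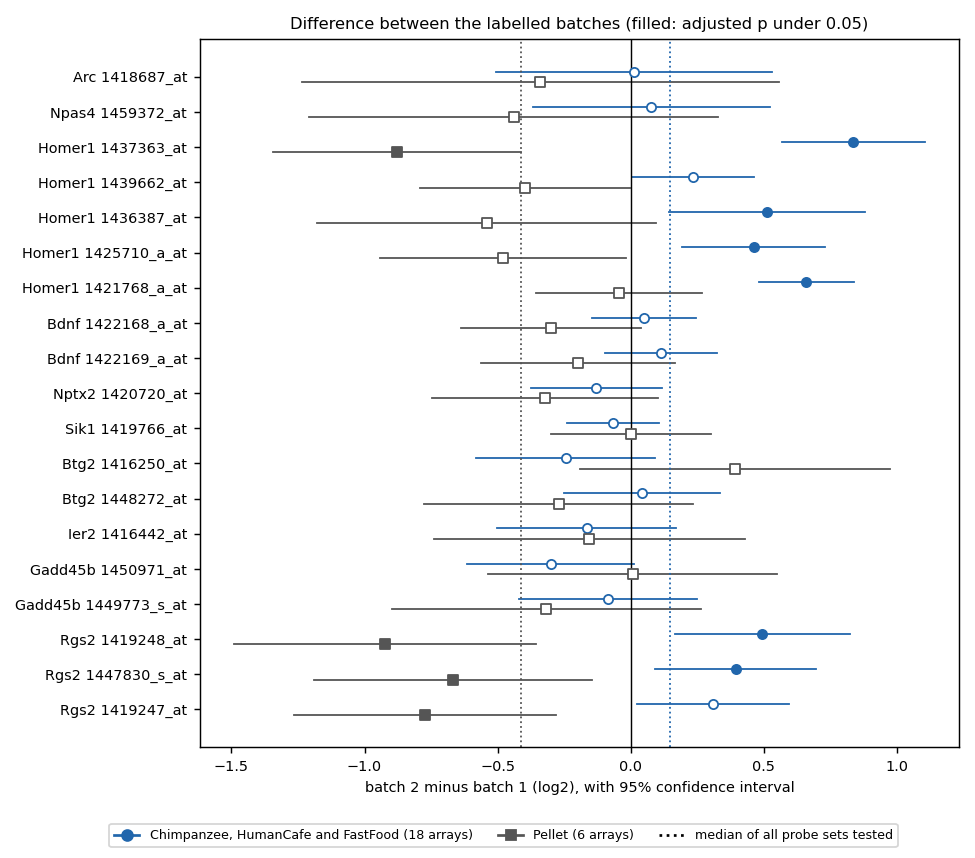
Batch 2 minus batch 1 (log2, horizontal axis) with 95% confidence intervals for the 19 tested probe sets, in the 18 arrays of the other diets (blue circles) and in the 6 Pellet arrays (grey squares), filled where the adjusted p was under 0.05, with dotted lines at the medians of all probe sets (0.15 and -0.41). Homer1 and Rgs2 lie to the right in the other diets and to the left on Pellet, and the remaining genes have intervals across 0. The intervals of both use a shared estimate of the spread from all arrays.

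Genes that act before or beside the members were read from 4 lists. Of 22 early transcription factors, the first wave to which Npas4 also belongs, 16 were tested, and in HumanCafe minus Chimpanzee 15 were lower and 1 higher on HumanCafe (54.1% of all probe sets were lower), with a median of -0.54. None was called by limma, 7 had an unadjusted p under 0.05 (1.46% of all), and in human diets minus Chimpanzee 14 were lower with a median of -0.33. In FastFood minus HumanCafe 13 of the 16 were higher, with a median of 0.16. Some region markers and the glucocorticoid targets described above lay to one side on the same arrays, and their part was not tested. The glucocorticoid list shares Per1 with the early transcription factors and Sgk1 with the other effectors. The 30 other induced effectors, all tested, gave 25 lower in HumanCafe minus Chimpanzee (median -0.15) and 0 called, and 5 had an unadjusted p under 0.05.

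The genes that carry the signal to the nucleus (22, of which 17 were tested) and the receptors and partners of the members (23, of which 17 were tested) gave no diet call. In batch 2 minus batch 1 of the diets other than Pellet, 9 signalling genes were called, all higher. This fit took its spread from all arrays, Pellet included, and 36.4% of all probe sets were called and 31.1% called higher. The signalling genes were led by Ppp3ca, a calcineurin subunit (0.89, SE 0.17). Mef2c (0.76, SE 0.15) and Mef2a (0.61, SE 0.12), transcription factors that respond to calcium, came next. Of the partners 9 were called, all higher, led by Rgs4 (0.66, SE 0.12), Ntrk2, the receptor of Bdnf (0.59, SE 0.15), and Grm5, the glutamate receptor bound by Homer1 (0.57, SE 0.14). Of the early transcription factors 2 were called, Egr3 (0.61, SE 0.17) and Klf10 (0.45, SE 0.17). Of the other effectors 9 were called, all higher, led by Rgs4, Nrn1 (0.64, SE 0.12) and Rheb (0.59, SE 0.15).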

How the data were processed

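Brain RNA of 24 mice was measured on 24 Affymetrix mouse arrays with 45101 probe sets. The deposited table holds log2 levels, which the authors computed with RMA including quantile normalization. The distributions of the arrays differed (SD 1.58 to 2.06), so that the 24 arrays do not share 1 normalization. The methods exclude 1 degraded Pellet array that the sources used here do not name, and all 24 were kept. The number of arrays limits the precision.

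Diet, batch and replicate number came from the sample titles. The 64 control probe sets, those of several genes and those with a mean under the median of 4.07 were left out. The linear models were fitted by limma (version 3.58.1, under R 4.3.3). Those for diet had terms for diet and batch, and those for batch had 8 diet-and-batch means. A call is an adjusted p (Benjamini-Hochberg, all 21996 probe sets) below 0.05. The code was tested on simulated data. Summaries used Python with pandas.

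All members are named. Of other genes, the 3 nearest to each member by correlation and up to 3 called genes per list with the largest differences are named. Members and lists were chosen with earlier results of these data known. Alternatives covered normalization, filter, probe set choice, array weights, batch term, single batches, a replicate block, the methods' two-way test, leaving out each array and, chosen after the data were seen, 8 diet-and-batch means for diets, exchanged Pellet labels and fits without Pellet.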

Additional observations from a re-analysis of the deposited data

Results flagged for a closer look

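In 5 of 76 checks of 1 probe set in the 6 arrays of a diet, 1 array lay far from the others. Chance gives about 1 in 20. Pellet batch 2 replicate 1, the array with the lowest correlation to the rest, was far below the other Pellet arrays for Arc (7.06), Gadd45b probe set 1449773_s_at (4.88) and Rgs2 probe set 1419247_at (6.56). HumanCafe batch 1 replicate 1 was low for Gadd45b probe set 1449773_s_at (5.36). Chimpanzee batch 1 replicate 1 was high for Ier2 (6.27).

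The batch difference on Pellet differed from that of the other diets, by the test of the difference itself, for Homer1 (-0.70, -0.94, -1.05, -1.71 and -0.63 for probe sets 1421768_a_at, 1425710_a_at, 1436387_at, 1437363_at and 1439662_at) and Rgs2 (-1.08, -1.42 and -1.06 for 1419247_at, 1419248_at and 1447830_s_at). The median over all probe sets was -0.56, with 69.1% of all called and 56.1% called lower. The Pellet arrays also reversed the batch order of the 18S control. After quantile normalization only Homer1 1437363_at and Rgs2 1419248_at of these probe sets stayed called, and Homer1 1439662_at turned to 0.21.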

How the results depend on the processing

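The number of members called among the 4 diets (1 with all 24 arrays) was 0 with 1 probe set per gene, batch 1 alone, no batch term, no filter, the replicate block or the methods' two-way test, and 11 in batch 2 alone. Pellet minus FastFood (1) gave 0 with 1 probe set per gene, only the compared diets or the methods' test. It gave 8 with exchanged Pellet labels (16.1% of all probe sets called) or 8 diet-and-batch means (17.8%), and 12 in batch 2 alone. Pellet minus Chimpanzee (0) gave 1 with those means, exchanged labels or quantile normalization, and 12 in batch 2 alone, and Pellet minus HumanCafe (0) gave 10 there. In batch 2 alone 43.6% to 59% of all probe sets were called in these tests. Batch 2 minus batch 1 (6) gave 2 with 1 probe set per gene, 3 after quantile normalization (23.2% of all called) and 13 with array weights, which ranged from 0.0065 to 122.5. The share of all called with array weights was not counted, so that this count is not a result about the members. The Pellet batch difference minus the others (8) gave 2 with 1 probe set per gene and 4 after quantile normalization (53.1% of all called). One probe set per gene leaves 10 members to call.

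Leaving out 1 array gave 0 to 1 among the 4 diets, 0 to 1 in Pellet minus Chimpanzee (1 without Pellet batch 1 replicate 2), 4 to 8 between batches, 6 to 10 in the Pellet batch difference, 1 throughout in Pellet minus FastFood, and 0 throughout in the other 4 diet comparisons. Of these fits, the share called over all probe sets was counted only for the fit without Pellet batch 2 replicate 1. Between batches, leaving out 1 array ended the call of Homer1 1436387_at (Chimpanzee batch 1 replicate 2 or 3, Chimpanzee batch 2 replicate 3, HumanCafe batch 1 replicate 1 or 2, HumanCafe batch 2 replicate 3, FastFood batch 1 replicate 2 or FastFood batch 2 replicate 2). Each of these 8 arrays also ended that of Rgs2 1447830_s_at, as did Chimpanzee batch 2 replicate 2, HumanCafe batch 2 replicate 2, FastFood batch 1 replicate 1 and FastFood batch 2 replicates 1 and 3. The Pellet batch difference of Homer1 1436387_at was not called without Pellet batch 1 replicate 2 or batch 2 replicate 1, nor that of 1439662_at without the latter. The call among the 4 diets was lost without FastFood batch 1 replicate 3, FastFood batch 2 replicate 1 or 2, Pellet batch 1 replicate 1 or 3, or Pellet batch 2 replicate 2 or 3.

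Quantile normalization reversed the batch difference of Arc (-0.27) and Bdnf (-0.13), the human diets minus Chimpanzee difference of lead Homer1 (-0.0075) and the Pellet batch difference of Homer1 1439662_at (0.21). Single batches reversed human diets minus Chimpanzee for Btg2 (-0.12, batch 2), lead Homer1 (-0.036, batch 1) and Nptx2 (0.0033, batch 1). Leaving out 1 array moved the batch difference of Arc from -0.14 to 0.17 and of Npas4 from -0.004 to 0.21, and human diets minus Chimpanzee from -0.0923 to 0.13 for lead Homer1 and from -0.0588 to 0.15 for Ier2. None of these was called as deposited except the Pellet batch difference of Homer1 1439662_at. The causes were not tested.

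Equal replicate numbers did not pair the arrays: over 36 same-numbered pairs the deviations correlated at -0.474 to 0.444 (median -0.028). Besides the call among the 4 diets, the replicate block moved no count by over 1.5 times. Quantile normalization shifted the median of all probe sets from 0.15 to -0.01 between batches and from -0.56 to -0.10 in the Pellet batch difference.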
